A study of Mus musculus with 18 samples.

Results

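Diclofenac, indomethacin and ibuprofen are non-steroidal anti-inflammatory drugs that each carry a carboxylic acid group, and they are described here as one class. The class took in 9 of the 18 samples of the study, 3 with each drug, and its value for a gene was the mean of the 3 drug means. The samples were chosen by their treatment labels and not by any measured value. All were 3T3-L1 cells, a mouse embryonic fibroblast line that turns into adipocytes in culture. The cells had been differentiated for 7 days and were then exposed for 24 hours to 25 µM sodium diclofenac, to 10 µM indomethacin, to 75 µM ibuprofen or to the vehicle DMSO, which served as the control with 3 samples. The other 6 samples had received 100 nM rosiglitazone, a full agonist of the nuclear receptor PPARγ, or 10 µM GQ16, a PPARγ ligand. Each sample was hybridised to 1 Illumina mouse BeadChip array. The line is a single clonal one, the labels do not say whether the 3 samples of a group were separate cultures, and the p-values therefore measure a spread between samples that may be technical.

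Acidic anti-inflammatory drugs are known for blocking the cyclooxygenases, the enzymes Ptgs1 and Ptgs2 that turn arachidonic acid into the precursor of the prostaglandins. Several of them also bind PPARγ, the receptor that drives adipocyte differentiation and switches on genes of fatty acid uptake, storage and oxidation, at concentrations above those that block cyclooxygenase. The 3 drugs share the acid group but differ in their frame: diclofenac is an arylacetic acid with an aniline ring, indomethacin an indole acetic acid, and ibuprofen a phenylpropionic acid. Because the 3 concentrations differed, drug and concentration cannot be told apart, so values are set side by side and no drug was compared with another in a pair.

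Values are log2 probe intensities as the authors processed them, and each gene is represented by its brightest probe. The 18 arrays had identical distributions, with a median of 5.98 and a maximum of 14.8, and 42.1% of probes lay above the background level of 6.18 on each. Of the genes on the array, 10958 were tested. The words rose, fell and called are used of a gene with a limma p-value under 0.05 after Benjamini-Hochberg adjustment over all of these genes. The precision is set by the number of arrays, 9 with a drug and 3 with DMSO. Adipocyte markers were present: 7 of 8 had a named probe, and all 7 were above background on the 12 drug and DMSO arrays. Preadipocyte markers persisted, with 4 of the 5 that had a probe above background on all 12 arrays and the mean of all 5, Tagln at background included, at 9.26 to 9.54 on drug arrays and 9.57 to 9.95 on DMSO arrays. Of 5 macrophage markers with a probe, 4 were at background on every array, and Csf1r was above it on 11 of 12. The arrays lay on 3 slides, and ibuprofen was on slide 2 only, beside DMSO replicate 3 and diclofenac replicate 1. Slide 1 held diclofenac replicate 2, indomethacin replicate 3 and DMSO replicates 1 and 2. Slide 3 held no DMSO array. DMSO replicate 3 stood farther from its group than the other DMSO arrays, with a root mean square deviation of 0.207 over genes, against 0.136 and 0.120. Fits with the slide as a block, and fits that left out each of the 12 drug and DMSO arrays in turn, were therefore run beside it, and many of the calls they lost are given with the genes.

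The first comparison asked what the class did relative to DMSO. Among genes called with each drug, the peroxisomal thiolase gene Acaa1b, the elongase gene Elovl3, the hormone gene Fgf21 and the keratin gene Krt23 had the largest rises. The membrane protein genes Tmem176a and Zan, the acute phase protein gene Orm2 and the cytochrome P450 gene Cyp2f2 had the largest falls. For the class, 415 genes rose (3.79% of those tested) and 670 fell (6.11%), 1085 in all (9.9%). Changes over 2-fold were fewer, with 14 rises and 33 falls. For 717 of the 1085 genes all 9 drug arrays lay beyond all 3 DMSO arrays, and 10.3% of all genes tested were separated in this way. The 1085 were chosen by a test on these same arrays, which in part fixes their separation. The median class change over all genes was 0.002 on the log2 scale. The count depended on the DMSO arrays, with 500 genes called without DMSO replicate 1 and 499 without DMSO replicate 2.

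The second question was which genes changed the same way with every drug. There were 168 of these (1.53%), 44 that rose with each of the 3 (0.402% of genes tested) and 124 that fell with each (1.13%). The comparisons of the 3 drugs share the 3 DMSO arrays, so a DMSO array that stands apart moves all of them together. Taken singly, diclofenac gave 230 calls (2.1%), indomethacin 1121 (10.2%) and ibuprofen 1037 (9.46%). These became 100, 659 and 416 without DMSO replicate 1, and 118, 675 and 413 without DMSO replicate 2. Without an array of the drug itself they were 93 to 127 for diclofenac, 521 to 726 for indomethacin and 540 to 666 for ibuprofen, and ibuprofen gave 1562 without DMSO replicate 3 and 380 with the slide block. In 166 of the 168 the 9 drug arrays did not overlap with the DMSO arrays, Ctla2b and Vmac being the exceptions. That separation follows in part from how the genes were chosen. The class change was over 2-fold for 10 of the genes that rose and for 28 of those that fell. Within slide 1 and within slide 2, the only slides with a DMSO array, all 168 kept their direction. The arrays of these slides had also served to choose the genes, so this is no independent check. Slide 1 held no ibuprofen array and slide 2 no indomethacin array. With the slide as a block 114 of the 168 were still called with each drug. The count fell to 79 and 85 without DMSO replicates 1 and 2, and to 102, 83 and 100 without diclofenac replicates 1, 2 and 3. In 58 genes, 15 that rose and 43 that fell, the call with each drug held without each of the 12 arrays in turn and with the slide block.

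Acaa1b headed the genes that rose with every drug. It encodes a peroxisomal thiolase that performs the last step of very-long-chain fatty acid oxidation, and had log2 intensities of 9.17, 9.10 and 9.17 with diclofenac, 10.54, 10.54 and 10.58 with indomethacin, and 10.24, 10.59 and 9.97 with ibuprofen, against 7.89, 7.77 and 7.84 with DMSO. Every drug array was above every DMSO array, and the diclofenac arrays were the lowest of the 9. The class change was 2.15 ± 0.13 on the log2 scale (SE, 9 drug arrays and 3 DMSO arrays, limma adjusted p = 2.1e-10), or 4.44-fold. Acaa1b has a near-identical paralogue, Acaa1a, whose class change was 0.15 and was not called.

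Elovl3, an elongase of very-long-chain fatty acids known from brown fat, measured 10.24, 9.79 and 10.11 with diclofenac, 10.59, 10.62 and 10.75 with indomethacin and 10.62, 11.03 and 10.66 with ibuprofen, against 8.67, 8.57 and 8.76 with DMSO. No drug array overlapped with a DMSO array, and the class change was 1.82 ± 0.14 (limma adjusted p = 1.14e-08). Fgf21, a hormone of the fasting response, measured 8.17, 8.19 and 8.55 with diclofenac, 9.65, 9.40 and 9.37 with indomethacin and 9.97, 9.76 and 9.52 with ibuprofen, against 7.46, 7.13 and 7.64 with DMSO. Again no drug array reached down to a DMSO array, and diclofenac was the lowest of the drugs. Its class change was 1.76 ± 0.14 (limma adjusted p = 1.21e-08). Chchd10, a mitochondrial protein of the cristae, rose by 1.33 ± 0.18 on the same scale. Its DMSO arrays were uneven, at 9.30, 9.15 and 8.44, against 9.82 to 10.00 with diclofenac, 10.25 to 10.58 with indomethacin and 10.44 to 10.79 with ibuprofen. The diclofenac call was lost for Fgf21 without DMSO replicate 2, and for Chchd10 without DMSO replicate 3 or any 1 diclofenac array.

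The remaining large rises came from genes of several kinds. Hcar2, the receptor for niacin and β-hydroxybutyrate that restrains lipolysis in adipocytes, rose by 0.99 ± 0.10, and Irs2, which links the insulin receptor to its kinases, by 0.97 ± 0.12. On slide 2 alone, where the DMSO array was replicate 3, the difference for Irs2 was 0.59, and its diclofenac call was lost without DMSO replicate 1 or 2 or diclofenac replicate 3. Cbr3, a cytosolic carbonyl reductase, averaged 12.97 ± 0.08 with diclofenac, 13.16 ± 0.02 with indomethacin and 13.09 ± 0.13 with ibuprofen, against 12.06 ± 0.07 with DMSO (SD, n = 3 each). The drug means lay within 0.19 of each other, with a class change of 1.02 ± 0.10 (limma adjusted p = 3.89e-07). Tmem86a, an enzyme that cleaves lysoplasmalogens, rose by 1.05 ± 0.13 and the tetraspan membrane protein gene Lhfpl2 by 1.13 ± 0.12. The keratin genes Krt23 and Krt79 rose by 1.65 ± 0.14 and 1.12 ± 0.13. Dmkn, a secreted protein known from the epidermis, rose by 1.42 ± 0.16, although of its other 2 probes 1 gave 1.48 and 1 gave -0.03.

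**Figure D1:**
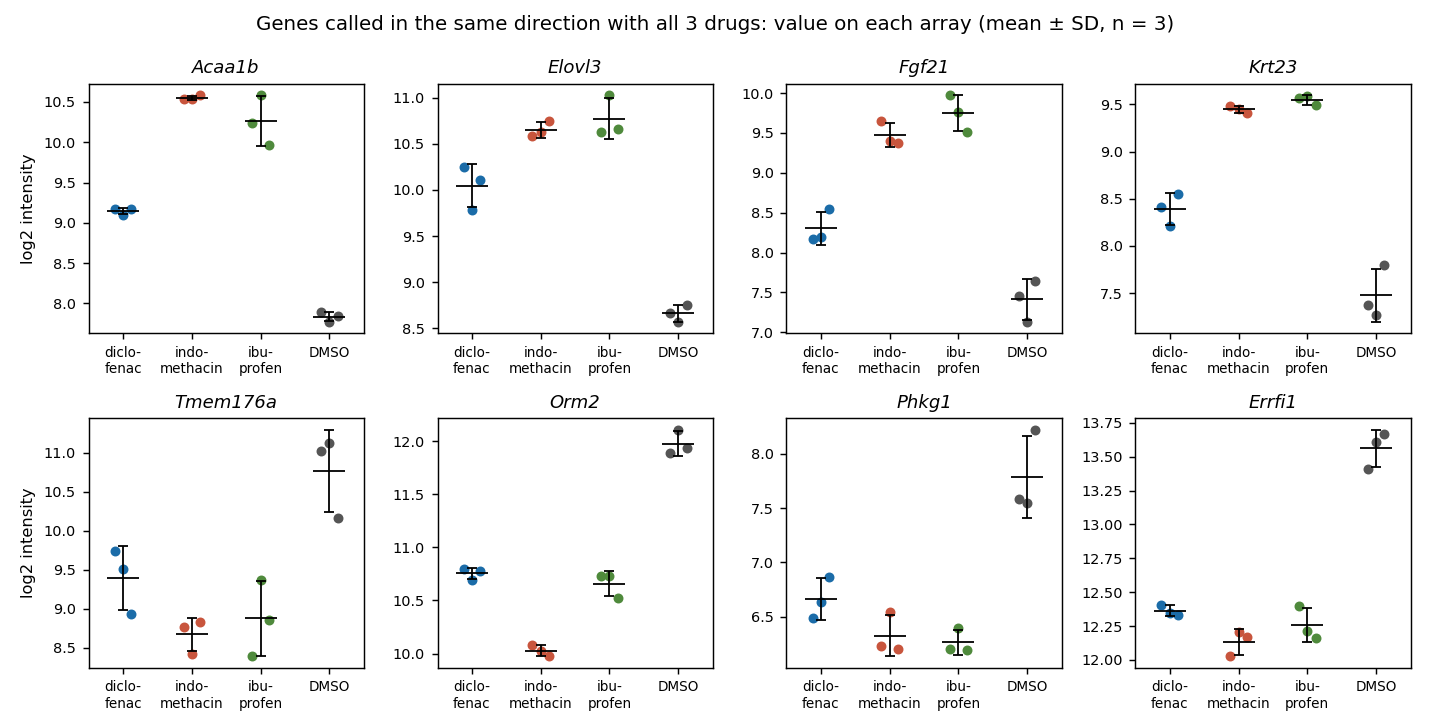
Log2 intensity of 4 genes that rose and 4 that fell with each of the 3 drugs. Each point is 1 array, in the order diclofenac, indomethacin, ibuprofen and DMSO, with the mean and SD of 3 arrays as lines, and in no panel does a drug array overlap with a DMSO array.

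Promoter windows of 3 genes show the sequence upstream of some of the leading rises. Each runs from 250 bases before to 50 bases after the transcript start, is taken from RefSeq (GRCm38.p6) and is written 5′ to 3′ on the gene's strand. Capitals mark the only motif matches found in them: in Fgf21 the composite site TGATGCAAT bound by ATF4 (here on the other strand, as ATTGCATCA), and in Chchd10 the nuclear receptor half-site AGGTCA (on the other strand, as TGACCT). The Acaa1b window, at chr9:119157044-119157343 on the minus strand, held neither. The Fgf21 window is at chr7:45615441-45615740 on the minus strand, and that of Chchd10 at chr10:75932880-75933179 on the plus strand.
Acaa1b: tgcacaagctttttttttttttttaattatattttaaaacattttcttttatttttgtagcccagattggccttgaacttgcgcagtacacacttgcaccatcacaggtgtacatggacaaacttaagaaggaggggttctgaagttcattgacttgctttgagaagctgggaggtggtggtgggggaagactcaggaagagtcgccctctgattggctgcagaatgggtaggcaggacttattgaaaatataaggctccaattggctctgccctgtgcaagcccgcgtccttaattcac
Fgf21: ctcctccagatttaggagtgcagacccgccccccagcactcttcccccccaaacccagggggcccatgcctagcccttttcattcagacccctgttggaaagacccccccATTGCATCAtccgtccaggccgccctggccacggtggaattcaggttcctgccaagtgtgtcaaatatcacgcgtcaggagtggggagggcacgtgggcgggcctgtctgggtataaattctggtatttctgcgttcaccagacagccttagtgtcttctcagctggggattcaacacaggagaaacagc
Chchd10: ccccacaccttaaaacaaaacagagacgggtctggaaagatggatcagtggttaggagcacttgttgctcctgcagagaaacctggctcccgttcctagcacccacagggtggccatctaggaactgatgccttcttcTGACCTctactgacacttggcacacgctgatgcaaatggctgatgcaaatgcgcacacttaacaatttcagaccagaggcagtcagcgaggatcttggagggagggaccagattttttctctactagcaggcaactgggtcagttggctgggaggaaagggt

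Motifs were searched on both strands of the same windows, which RefSeq gave for 32 of the 44 genes that rose with each drug, 92 of the 124 that fell and 8906 of all genes tested, and a gene counted if any of its windows held the letters. The repeat bound by PPAR with its partner RXR (AGGTCANAGGTCA) was found in 0 genes of either set and in 4 of the 8906 (0.0449%). A looser form (AGGNCANAGGNCA), which takes in the first, was also found in 0 genes of either set and in 33 of the 8906 (0.371%). The half-site AGGTCA, of which the first repeat holds a pair, was found in 5 of the 32 genes (15.6%) and 17 of the 92 (18.5%), against 15.0% of the 8906. The ATF4 composite site was found in 1 of the 32, Fgf21, in 0 of the 92 and in 13 of the 8906 (0.146%). A match is a description of letters and not of binding, and the windows do not reach enhancers.

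Orm2 was among the largest falls with every drug. It encodes an acute phase protein of plasma and measured 10.79, 10.70 and 10.78 with diclofenac, 10.08, 10.02 and 9.98 with indomethacin and 10.73, 10.73 and 10.52 with ibuprofen, against 11.88, 12.11 and 11.94 with DMSO. All drug arrays were below all DMSO arrays and the indomethacin arrays were lowest, and the class change was -1.50 ± 0.11 (limma adjusted p = 1.01e-08). Orm2 and Orm1 are close copies whose probes may share transcripts, and Orm1 fell by 0.71 ± 0.08 on the log2 scale.

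Errfi1, which inhibits the epidermal growth factor receptor, measured 12.41, 12.35 and 12.33 with diclofenac, 12.03, 12.20 and 12.17 with indomethacin and 12.40, 12.21 and 12.16 with ibuprofen, against 13.41, 13.61 and 13.67 with DMSO. The drug means lay within 0.23 of each other, and the class change was -1.31 ± 0.12 (limma adjusted p = 5.91e-08). Lox, the enzyme that crosslinks collagen and elastin, gave the closest drug means of the 12 largest falls, which spanned 0.13. It measured 12.06, 12.15 and 12.17 with diclofenac, 11.73, 12.21 and 12.04 with indomethacin and 12.26, 12.23 and 11.75 with ibuprofen, against 13.22, 13.19 and 13.28 with DMSO. The class change of Lox was -1.16 ± 0.12. Abi3bp, another matrix protein gene, fell by 1.23 ± 0.13 in its brightest probe, while its other probe gave 0.11. Olfml3, a secreted protein of the olfactomedin family, fell by 1.46 ± 0.16.

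Enzymes and membrane proteins of other kinds completed the list of largest falls. Cyp2f2, a cytochrome P450 known from mouse lung, fell by 1.49 ± 0.13, and Rdh12, a retinol dehydrogenase, by 1.20 ± 0.15, with a diclofenac call that was lost without any 1 DMSO or diclofenac array. Phkg1, the catalytic subunit of muscle phosphorylase kinase, measured 6.49, 6.64 and 6.87 with diclofenac, 6.23, 6.55 and 6.20 with indomethacin and 6.21, 6.40 and 6.19 with ibuprofen, against 7.58, 7.55 and 8.22 with DMSO. The drug arrays were close to the background level, where differences are compressed, and the class change of -1.36 ± 0.12 is then understated. Zan, a sperm membrane protein, fell by 1.54 ± 0.13, Syt12, a synaptotagmin of vesicle membranes, by 1.32 ± 0.15, and the orphan receptor gene Mrgprf by 1.24 ± 0.15. The other probe of Syt12 gave -0.56. Tmem176a, a membrane protein gene whose other probe gave -0.39, had the largest fall, 1.79 ± 0.21 on the log2 scale. Its DMSO arrays were at 11.02, 11.13 and 10.17, against 8.94 to 9.74 with diclofenac, 8.43 to 8.83 with indomethacin and 8.40 to 9.37 with ibuprofen, and on slide 2 alone, with DMSO replicate 3, the difference was -0.86.

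**Figure D2:**
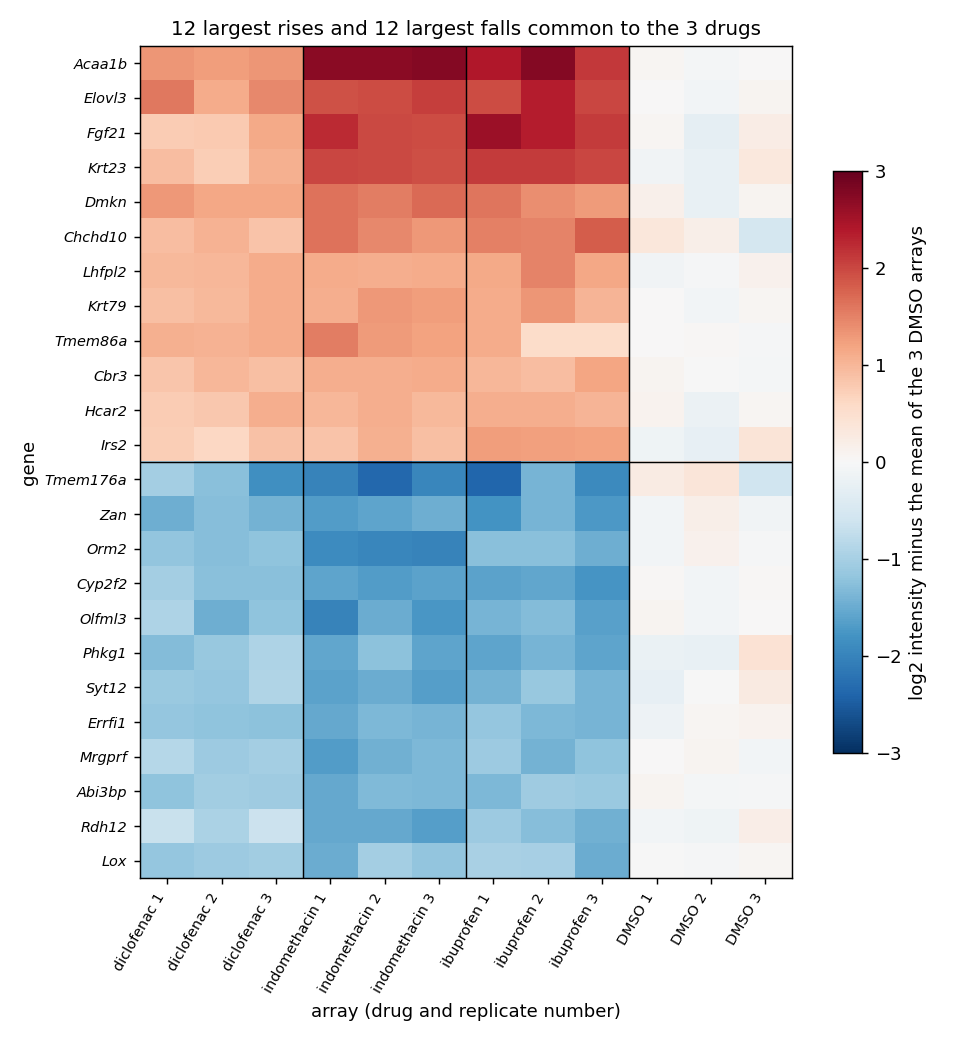
The 12 largest rises and 12 largest falls common to the 3 drugs (vertical, by class change) on each of the 12 arrays (horizontal). Colour gives log2 intensity minus the mean of the 3 DMSO arrays, and the diclofenac columns are paler than the others for Acaa1b, Fgf21 and Krt23.

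Among the 168 common genes the measured change was most often smallest with diclofenac and largest with indomethacin, although the concentrations differed too. The drug means of these genes spanned a median of 0.28 on the log2 scale, against 0.21 over all genes. Diclofenac at 25 µM gave the smallest change in 105 of them, ibuprofen at 75 µM in 46 and indomethacin at 10 µM in 17. Indomethacin gave the largest change in 94, ibuprofen in 51 and diclofenac in 23. The median change of the 44 genes that rose was 0.73 with diclofenac, 0.89 with indomethacin and 0.76 with ibuprofen. For the 124 that fell it was -0.71, -0.90 and -0.81 in the same order. These counts and medians describe genes chosen by their calls and carry no test. Under the F test described next, 9 of the 168 differed among the drugs: Acaa1b, Fgf21 and Krt23 among the rises, and Orm1, Orm2, Lgi4, Rgr, Xdh and Thrsp among the falls. Among the fits without 1 array the F test call held in 9 of 12 for Orm2, 8 for Lgi4, 4 each for Orm1 and Rgr and 1 each for Thrsp and Xdh, and the last 4 of these lost it with the slide block. The same genes were also measured in the rosiglitazone and GQ16 groups, which were compared with the same DMSO arrays. Acaa1b changed by 1.31, 2.72 and 2.43 with diclofenac, indomethacin and ibuprofen, by 3.96 with rosiglitazone and by 1.38 with GQ16. Errfi1 changed by -1.20, -1.43 and -1.31 with the 3 drugs, by -2.03 with rosiglitazone and by -0.53 with GQ16. Cyp2f2 stood at -1.18, -1.62 and -1.65 with the drugs, and at -1.42 with rosiglitazone and -0.44 with GQ16.

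The third comparison asked where the class members diverged. A limma F test over the differences among the 3 drug means, with the spread estimated over all 18 arrays, called 93 genes (0.849% of those tested). Immediate early genes, a stress transcription factor and metabolic genes were among the widest. The drug means of the 93 spanned 0.37 to 1.45 on the log2 scale with a median of 0.75, against a median of 0.21 over all genes. Of the 93, 38 were also called for the class and 55 were not. Ibuprofen was the drug farthest from the middle one in 42, diclofenac in 32 and indomethacin in 19. With limma 0 genes were called up with one drug and down with another, and 5 were in a fit of the 12 drug and DMSO arrays alone. Genes that did not pass are not shown to respond alike. With the slide as a block 43 genes were called (0.392%), 39 of them among the 93. Because ibuprofen was on slide 2 only, that block rests for ibuprofen on the diclofenac, DMSO and GQ16 arrays of the same slide. The count was 1252 in a fit of the 12 drug and DMSO arrays alone, 183 with the probes of a gene averaged, 26 with no filter on dim probes and 226 without DMSO replicate 3. Without 1 array of diclofenac the count was 27 to 37, of indomethacin 36 to 44 and of ibuprofen 22 to 48.

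**Figure D3:**
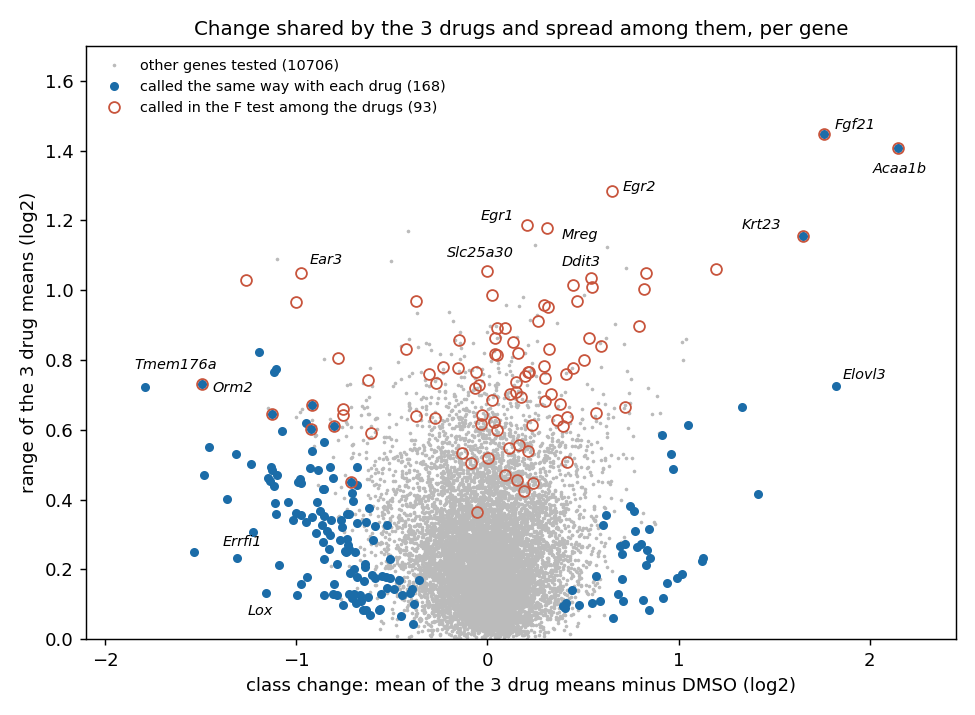
Each point is a gene. The horizontal axis is the class change (mean of the 3 drug means minus DMSO, log2) and the vertical axis is the span of the 3 drug means (log2). Filled points are the 168 genes called the same way with each drug and open circles the 93 genes called in the F test, and 9 genes carry both marks.

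Egr1 and Egr2, zinc finger transcription factors induced within minutes of growth factor signalling, were highest with indomethacin. Egr2 measured 9.84, 9.86 and 9.37 with diclofenac, 10.35, 9.95 and 10.31 with indomethacin and 8.97, 8.56 and 9.23 with ibuprofen, against 8.89, 9.16 and 8.80 with DMSO. The ibuprofen arrays overlapped with DMSO and the indomethacin and diclofenac arrays did not. The drug means spanned 1.29 (limma F test, adjusted p = 0.00616), with the slide block that p was 0.0658, and the call was lost without ibuprofen replicate 2. Egr1 measured 11.04, 10.82 and 10.52 with diclofenac, 11.51, 11.63 and 11.57 with indomethacin and 10.56, 10.28 and 10.31 with ibuprofen, against 11.05, 10.84 and 10.24 with DMSO. Only the indomethacin arrays cleared the DMSO range. The span was 1.19 (adjusted p = 0.0135, and 0.0931 with the slide block), and the call held in 8 of 12 fits without 1 array, being lost without any indomethacin array or ibuprofen replicate 2.

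Ibuprofen stood apart in Ddit3 and Mreg. Ddit3, which encodes the stress transcription factor CHOP, measured 12.68, 12.07 and 12.44 with diclofenac, 12.28, 12.72 and 12.46 with indomethacin and 13.54, 13.47 and 13.29 with ibuprofen, against 12.15, 12.07 and 12.48 with DMSO. Diclofenac and indomethacin overlapped with DMSO and ibuprofen did not. The span was 1.03 (limma F test, adjusted p = 0.00774, and 0.0447 with the slide block), and the call was lost without ibuprofen replicate 2. Mreg, which encodes the melanosome transport protein melanoregulin, measured 7.62, 7.74 and 7.71 with diclofenac, 7.87, 8.19 and 8.03 with indomethacin and 8.86, 8.88 and 8.86 with ibuprofen, against 7.79, 7.73 and 8.13 with DMSO. The ibuprofen arrays, with an SD of 0.01 (n = 3), lay above every other array. The span was 1.18 (adjusted p = 0.00125, and 0.00458 with the slide block), and the call held in all 12 fits without 1 array.

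Sdcbp2, a scaffold protein of the syntenin family, was highest with indomethacin, at 10.22, 10.02 and 10.23, with 9.23, 9.25 and 9.05 for diclofenac and 9.03, 9.12 and 9.18 for ibuprofen, against 8.81, 8.79 and 8.35 with DMSO. All drug arrays exceeded the DMSO arrays, and the span of the drug means was 1.05 (adjusted p = 0.00961, lost without indomethacin replicate 1 or 3). Slc25a30, a mitochondrial carrier, had drug means on both sides of DMSO. It measured 7.80, 7.62 and 7.98 with diclofenac, 8.31, 8.33 and 8.28 with indomethacin and 8.73, 8.84 and 8.99 with ibuprofen, against 8.22, 8.14 and 8.60 with DMSO. Its class change was -0.002 ± 0.15 and was not called, while the span was 1.05 (limma F test, adjusted p = 0.0135, and 0.0482 with the slide block). That call was lost without diclofenac replicate 1 or 2 or ibuprofen replicate 2 or 3.

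Diclofenac gave the smallest response in the other wide genes. Gpcpd1, a phosphodiesterase of glycerophosphocholine, changed by 0.51 with diclofenac, 1.51 with indomethacin and 1.57 with ibuprofen against DMSO. Olfml2b, a secreted olfactomedin-domain protein, changed by -0.68, -1.42 and -1.71 in the same order. Ear3, a ribonuclease of the eosinophil-associated family, changed by -0.50, -0.89 and -1.55, and belongs to a multicopy family whose probes may share transcripts. Its other 2 probes gave class changes of -0.48 and -0.31, against -0.98 in the brightest. Those of Gpcpd1 gave 0.10 and 1.01, against 1.20. Fgf21, Acaa1b and Krt23, described above, had drug means that spanned 1.45, 1.41 and 1.16, each with diclofenac lowest. The F test call was lost for Gpcpd1 without diclofenac replicate 1 or 2 or ibuprofen replicate 2, for Olfml2b without any diclofenac array or ibuprofen replicate 2, and for Ear3 without ibuprofen replicate 3. Fgf21, Acaa1b and Krt23 kept their F test call in each of the 12 fits without 1 array and with the slide block.

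**Figure D4:**
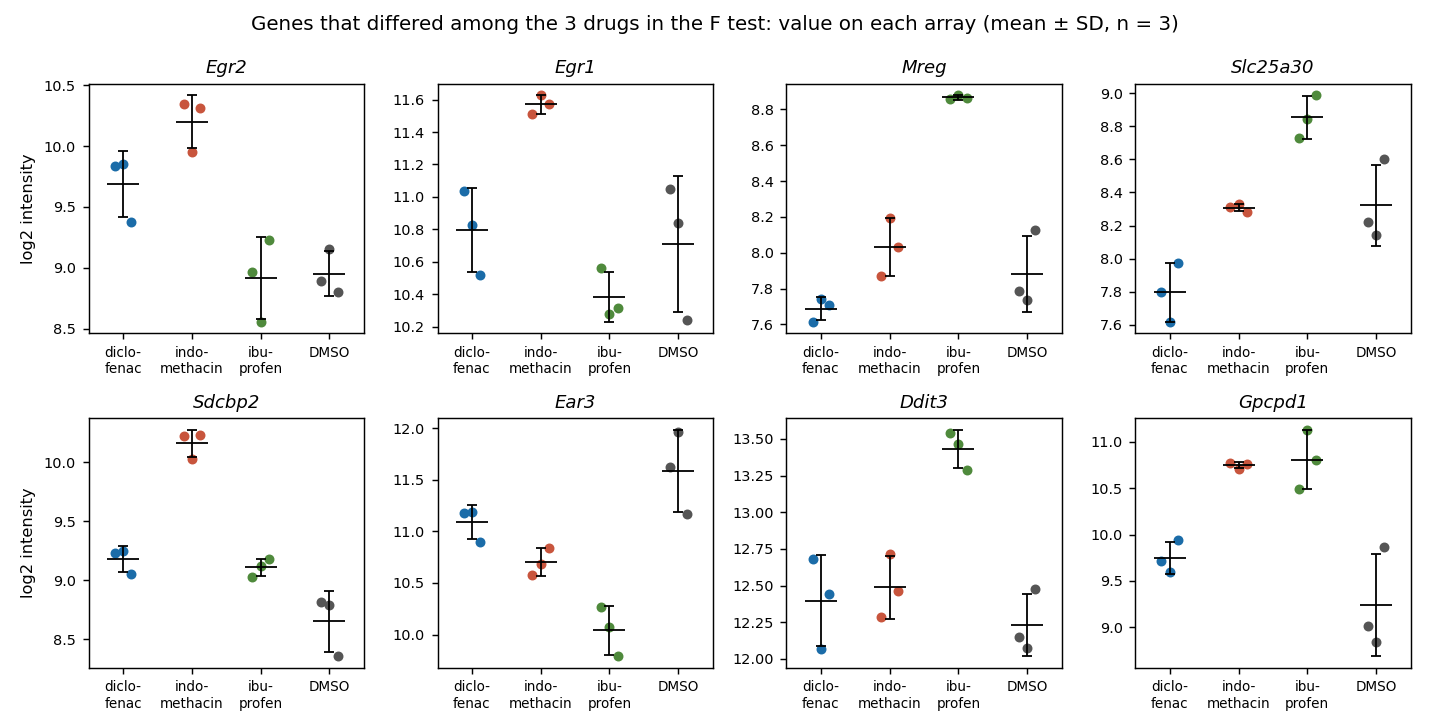
Log2 intensity of 8 genes called in the F test among the 3 drugs. Each point is 1 array, with the mean and SD of 3 arrays as lines. Egr1, Egr2 and Sdcbp2 are highest with indomethacin, and Mreg, Slc25a30 and Ddit3 are highest with ibuprofen.

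Gene lists were then read for the class, beginning with the drugs' own pathway. The lists were chosen with earlier results of these data known, so their shares are descriptions and carry no test. Of 14 measured genes of prostaglandin synthesis, transport and reception, 0 rose and 1 fell (7.14% called, against 9.9% of all genes), and the list's median class change was 0.002. That gene, Ptgis, which makes prostacyclin, measured 10.49, 10.18 and 10.44 with diclofenac, 9.76, 9.95 and 9.92 with indomethacin and 10.17, 9.99 and 9.95 with ibuprofen, against 10.83, 10.94 and 10.98 with DMSO. No drug array reached the DMSO range, and the class change was -0.82 ± 0.11 (limma adjusted p = 3.15e-05), with a call for each drug. The diclofenac call of Ptgis held in 3 of 12 fits without 1 array, those without an ibuprofen array. Ptgs2, the inducible cyclooxygenase, had 2 probes and was above background on 0 of the 12 arrays. Ptgs1 had no named probe and is not reported.

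The receptor and its targets gave a mixed picture. Pparg itself fell by 0.47 ± 0.10, with levels of 13.41, 13.43 and 13.61 with diclofenac, 13.13, 13.15 and 13.23 with indomethacin and 13.49, 13.52 and 13.32 with ibuprofen, against 13.82, 13.68 and 14.01 with DMSO (limma adjusted p = 0.00247). All 9 drug arrays were below the DMSO arrays. Of 25 measured PPARγ target genes, 6 rose and 0 fell (9.9% of all genes were called, 3.79% upward), and the median class change was 0.26. The risers were Fgf21, the fatty acid binding protein gene Fabp5 at 1.02 ± 0.19, the glycerol phosphate dehydrogenase Gpd1 at 0.70 ± 0.16, the lipase inhibitor Angptl4 at 0.58 ± 0.10, the glycerol channel Aqp7 at 0.54 ± 0.15 and the lipid droplet coat protein Plin2 at 0.52 ± 0.14. With the drugs taken singly, 1 of the 25 rose with diclofenac, 4 with indomethacin and 8 with ibuprofen, and only Fgf21 rose with each. Of all genes 2.1%, 10.2% and 9.46% were called with these drugs, in either direction. The other probe of Angptl4 gave a class change of 0.17 and that of Fabp5 0.61. The class call was lost for Gpd1 without DMSO replicate 1 or 3 and for Plin2 without DMSO replicate 3. For Aqp7 it was lost without DMSO replicate 1 or 2 and with the slide block (0.44, limma adjusted p = 0.0855). Other classical targets were not called: Fabp4 gave 0.29 ± 0.22 (adjusted p = 0.459), the fatty acid transporter Cd36 0.37 ± 0.15 (adjusted p = 0.121) and the adipokine Adipoq 0.22 ± 0.10 (adjusted p = 0.183). The value of Fabp4 depended on DMSO replicate 3, without which it was -0.040. Of 27 genes of adipocyte identity 2 rose and 3 fell (18.5% called), with a median of 0.02. The glucose transporter Slc2a4 fell by 0.53 ± 0.12, the coactivator Ppargc1a rose by 0.73 ± 0.14, and the thermogenic gene Ucp1 was above background on 0 of 12 arrays.

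The shares of genes called in the oxidation lists were 15.8% for fatty acid oxidation, 11.8% for peroxisomal genes and 12.9% for oxidative phosphorylation. Of all genes 9.9% were called, 3.79% upward, and the calls in these lists were upward except for Cox8b. Of 19 genes of fatty acid oxidation, 3 rose and 0 fell: Acot2, a mitochondrial thioesterase, at 1.04 ± 0.18, Decr1, a dienoyl-CoA reductase, at 0.81 ± 0.14 and the acylcarnitine carrier Slc25a20 at 0.46 ± 0.13. On slide 2 alone Acot2 was at 0.46, Decr1 at 0.49 and Slc25a20 at 0.19, and the last was not called without DMSO replicate 1 or 2. Acot2 and Acot1 are close copies, and the other 2 probes of Acot2 gave 0.03 and 0.12. Of 17 peroxisomal genes 2 rose, Acaa1b and the thioesterase gene Acot8 at 0.44 ± 0.10, and 0 fell, with 1 call without DMSO replicate 1. Of 31 genes of oxidative phosphorylation 3 rose, by 0.30 to 0.43, and Cox8b, a cytochrome oxidase subunit, fell by 0.44 ± 0.12, with 2 calls in all without any DMSO array taken singly, and Cox8b lost without DMSO replicate 1 or 3. Of 21 genes of fatty acid and triglyceride synthesis (23.8% called) 1 rose, Elovl3, and 4 fell. Thrsp, a regulator of lipogenesis, fell by 0.81 ± 0.10, the carbohydrate-sensing factor gene Mlxipl by 0.67 ± 0.14 and the acyltransferase gene Dgat2 by 0.30 ± 0.08. The calls in that list numbered 3 without DMSO replicate 1 and 3 without DMSO replicate 2, and Dgat2 was lost in both. Mlxipl was called with each drug in 3 of 12 fits without 1 array and not with the slide block. Of 28 genes of glucose and glycogen use (21.4% called) 2 rose and 4 fell. Among the falls were Phkg1, Slc2a4 and the glycogen phosphorylase gene Pygb at -0.61 ± 0.14 (lost without DMSO replicate 2), while the hexokinase gene Hk1 rose by 0.55 ± 0.10.

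Extracellular matrix genes had the largest share of calls of the 20 lists. Of 30 measured, 16 fell for the class (53.3%, against 6.11% of all genes) and 0 rose, with a median class change of -0.37. The median was -0.24 with diclofenac, -0.49 with indomethacin and -0.29 with ibuprofen. With the drugs taken singly, 3 of the 30 fell with diclofenac, 17 with indomethacin and 10 with ibuprofen, and 2 fell with each. Of all genes 2.1%, 10.2% and 9.46% were called with these drugs, in either direction. Besides Lox, the fibronectin gene Fn1 fell by 0.90 ± 0.17, the small proteoglycan gene Dcn by 0.74 ± 0.13 and the basement membrane collagen gene Col18a1 by 0.73 ± 0.11. Fn1 measured 9.90, 9.56 and 9.81 with diclofenac, 9.16, 9.57 and 9.43 with indomethacin and 10.11, 9.94 and 9.86 with ibuprofen, against 10.56, 10.31 and 10.92 with DMSO. No drug array overlapped with a DMSO array. The number of matrix genes called for the class was 10 without DMSO replicate 1, 7 without DMSO replicate 2 and 12 with the slide block. The median class change was -0.38 on slide 1 and -0.13 on slide 2. Of 22 preadipocyte and fibroblast genes 1 rose and 6 fell (31.8% called, against 9.9% of all genes). The falls included Tgfbi, a matrix protein induced by TGFβ, at -1.13 ± 0.14 and the growth factor receptor gene Pdgfra at -0.59 ± 0.18, whose other probe gave 0.12. Pdgfra was called in 4 of 12 fits without 1 array and gave -0.44 with the slide block (adjusted p = 0.139). The number called in that list was 3 without DMSO replicate 1 and 3 without DMSO replicate 2. The share of undifferentiated cells and the RNA per cell cannot be told apart in such bulk samples, and the part of the preadipocyte level given above in these falls was not tested.

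Inflammatory genes moved both ways. Of 22 acute phase and inflammatory genes 2 rose and 5 fell (31.8% called, against 9.9% of all genes), with a median of -0.14. The adhesion molecule Vcam1 measured 9.50, 9.27 and 9.49 with diclofenac, 9.10, 9.28 and 9.25 with indomethacin and 9.48, 9.84 and 9.39 with ibuprofen, against 10.53, 10.46 and 10.52 with DMSO, a class change of -1.10 ± 0.12 with no overlap. The neutrophil chemokine Cxcl1 went the other way, at 8.87, 8.66 and 8.88 with diclofenac, 9.96, 9.38 and 9.48 with indomethacin and 9.19, 9.23 and 8.91 with ibuprofen, against 7.95, 8.07 and 8.44 with DMSO. It rose by 1.02 ± 0.15 (limma adjusted p = 9.14e-05) and did not overlap with DMSO either. Of 20 interferon response genes 1 rose and 3 fell (20% called). The deconjugating enzyme Usp18 rose by 0.53 ± 0.12 and the guanylate-binding protein gene Gbp3 fell by 0.66 ± 0.17. Usp18 was not called without DMSO replicate 2, nor Gbp3 without DMSO replicate 1 or 3. Irf7, a transcription factor of that response, was below background on every indomethacin array and at least 1.41-fold lower there. The number called was 2 without DMSO replicate 1, 2 without DMSO replicate 2 and 7 with the slide block.

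Genes of glucocorticoid response and of feedback on ERK signalling held 10 calls among 25 (40%, against 9.9% of all genes), 3 higher and 7 lower. The number was 7 without DMSO replicate 1, 7 without DMSO replicate 2, 8 without DMSO replicate 3 and 8 with the slide block. Lox counts in the matrix list too. Besides Errfi1 and Lox, Pik3ip1, an inhibitor of the lipid kinase PI3K, fell by 1.14 ± 0.09. It measured 6.84, 6.62 and 6.75 with diclofenac, 6.22, 6.44 and 6.52 with indomethacin and 6.82, 6.91 and 6.81 with ibuprofen, against 7.84, 7.77 and 7.78 with DMSO. All drug arrays were below all DMSO arrays. Dusp4, a phosphatase that acts on ERK and its relatives, rose by 0.77 ± 0.12 (limma adjusted p = 0.000223). Its ibuprofen call was lost with the slide block, and its diclofenac call without DMSO replicate 1 or any 1 diclofenac array.

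A list drawn up for the handling of acidic drugs held calls in both directions, at a share of 25% against 9.9% of all genes. Whether its members act on these 3 drugs was not tested, and Acot2 counts in the fatty acid oxidation list too. Of 28, which covered cytochromes P450, conjugating enzymes, acyl-CoA enzymes and transporters, 3 rose and 4 fell. Besides Cyp2f2 and Acot2 these included the glutathione transferase gene Gstm2 at -0.69 ± 0.10, one of a family of close copies, and the export pump gene Abcc1 at 0.51 ± 0.15. The value of Abcc1 was 0.01 on slide 2, 0.35 with the slide block (adjusted p = 0.135), and -0.07 in its other probe, and it was called in 5 of 12 fits without 1 array. Of 12 aldo-keto and carbonyl reductases (25% called) 2 rose, Cbr3 and Akr1b8 at 0.55 ± 0.14, and 1 fell, the xylulose reductase gene Dcxr at -0.43 ± 0.13. The number was 1 without DMSO replicate 3, Akr1b8 and Dcxr being lost, and Dcxr held in 5 of 12 fits without 1 array. Of 17 genes of the NRF2 response and glutathione (23.5% called) 3 rose, the cystine transporter gene Slc7a11 at 0.59 ± 0.12, the sulfiredoxin gene Srxn1 at 0.58 ± 0.12 and the haem oxygenase gene Hmox1 at 0.47 ± 0.12. The glutathione peroxidase gene Gpx1 fell by 0.36 ± 0.10. The number was 2 without DMSO replicate 2, Hmox1 and Gpx1 being lost.

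Stress, growth and sterol lists held 0 to 4 calls each. The share called was 17.4% for amino acid stress and 0% for folding in the endoplasmic reticulum. It was 11.1% for DNA replication and mitosis and 6.25% for cholesterol. Of all genes 9.9% were called, 3.79% upward. Of 23 genes of the amino acid stress response 4 rose and 0 fell, with a median of 0.15. Atf3, a stress transcription factor, had drug means within 0.06 of each other and a class change of 0.65 ± 0.14. The others were Slc7a11, the asparagine synthetase gene Asns at 0.42 ± 0.11 and Ddit3, in which ibuprofen stood apart. The number was 2 without DMSO replicate 2, and Ddit3 was not called with the slide block (class change 0.38, adjusted p = 0.0841) or without DMSO replicate 1 or 2. Asns was not called without DMSO replicate 2 or 3, and Atf3 was called with each drug in 1 of 12 fits without 1 array. Of 15 chaperones and folding enzymes of the endoplasmic reticulum 0 were called in the limma test for the class, 2 had an unadjusted p under 0.05, and 2 were called without DMSO replicate 3. Of 27 genes of DNA replication and mitosis 3 rose, the replication helicase genes Mcm2 at 0.53 ± 0.13 and Mcm5 at 0.43 ± 0.12 and the mitotic kinase gene Plk1 at 0.40 ± 0.11, and the number was 1 without any of the 3 DMSO arrays taken singly. Of 16 genes of cholesterol synthesis and uptake 1 fell, the sterol exporter gene Abcg1 at -0.64 ± 0.17, and the number was 0 without DMSO replicate 1, 0 without DMSO replicate 2 and 4 without DMSO replicate 3.

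**Figure D5:**
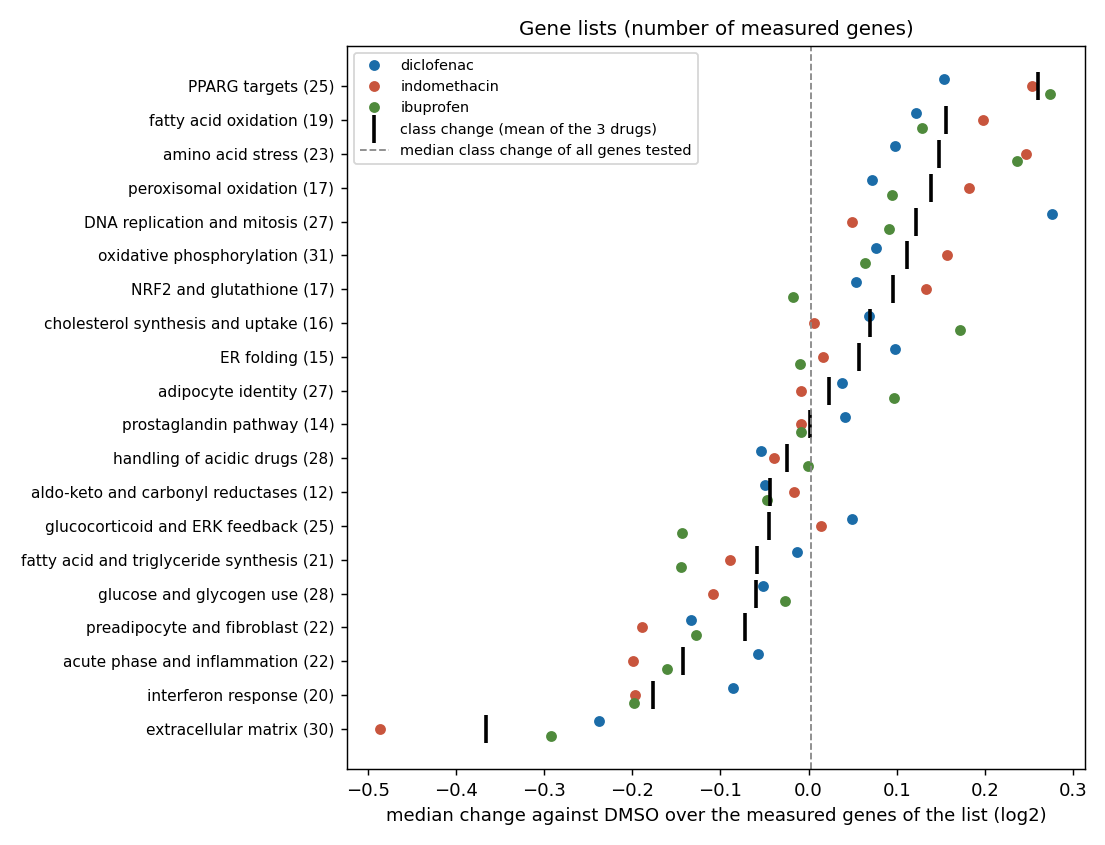
Median change against DMSO (log2, horizontal) over the measured genes of each list (vertical, number of genes in brackets). Points are the 3 drugs, bars the class change and the dashed line the median class change of all genes. PPARγ targets lie highest at 0.26 and extracellular matrix genes lowest at -0.37.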

How the data were processed

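RNA of 18 samples was hybridised to 1 array each. The values analysed are the log2 intensities deposited by the authors for each probe. The submitters' processing notes name lumi and GenomeStudio, with versions and order not given in the sources used here. Sorted values were the same in the 18 arrays within a tolerance of 0.002, so distributions had been made equal. Base 2 was inferred from the highest value, probes were not centred, and any background step is unknown. Dim probes are compressed, which understates the fold changes of dim genes. Signals before normalization were left aside, because the 36 columns that hold them carry names that match no sample with certainty.

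Of 45281 probes, 34885 had 1 gene symbol, 18 several and 10378 none. RefSeq gene identifiers matched 34807 and changed 0 symbols. Background was the 95th percentile of 1526 odorant, vomeronasal and trace amine receptor probes. Exceeding it on at least 3 arrays kept 21132 probes, 17674 with 1 symbol. A fold against a group below background on all its arrays is given as "at least", against the background level. Other probes of a gene are mentioned where they moved the other way, and for some genes where they moved less.

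Genes were fitted with limma 3.58.1 in R 4.3.3, with 6 group means over 18 arrays, an intensity trend, 12 residual and 11.9 prior degrees of freedom, and two-sided tests. The calculation was tested on simulated data. The 20 lists held 544 genes, 416 of them measured. Named genes were the 12 largest rises and falls common to the drugs, the 12 widest of the F test, up to 4 called members per list, and a fixed set of adipocyte and cyclooxygenase genes. Aqp7, Plin2, Acaa1a, the genes of the last section, Ctla2b, Vmac, Lgi4, Rgr and Xdh were named after their values were seen. The compounds, lists and rules were chosen with earlier results of these data known. Alternatives were the probe filter, centring, averaging probes, the 12 arrays alone, no trend, slide and replicate blocks, and each array left out.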

Additional observations from a re-analysis of the deposited data

Results flagged for a closer look

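Of the 93 genes called in the limma F test among the drugs, the 12 with the widest span of the drug means are given here. The span of the 3 drug means on the log2 scale was 1.45 for Fgf21, 1.41 for Acaa1b, 1.29 for Egr2, 1.19 for Egr1, 1.18 for Mreg and 1.16 for Krt23. It was 1.06 for Gpcpd1, 1.05 for Slc25a30, 1.05 for Sdcbp2, 1.05 for Ear3, 1.03 for Ddit3 and 1.03 for Olfml2b. With the slide as a block Egr2 and Egr1 were no longer called and the other 10 were. With no filter on dim probes 5 of the 12 lost the F test call and 7 kept it. Without single arrays Acaa1b, Fgf21, Krt23 and Mreg kept the F test call in all 12 fits, and the other 8 lost it in 1 to 4 of them. No search for single outlying arrays was made, because each group holds 3.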

How the results depend on the processing

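Main counts were 415 genes higher and 670 lower for the class, 44 and 124 common, 93 divergent, and 230, 1121 and 1037 called with diclofenac, indomethacin and ibuprofen. With only the 12 drug and DMSO arrays they were 841, 1152, 134, 277, 1252, 703, 2054 and 2092 in that order. Without rosiglitazone replicate 1 and DMSO replicate 3, left out together after seeing the data, they were 828, 1028, 138, 238, 1011, 487, 1694 and 2340. The 12 arrays with the slide block, also added later, gave 545 for diclofenac and 667 for ibuprofen. The slide block gave 27 common rises, 43 divergent genes and 380 calls for ibuprofen. No filter on dim probes gave 28, 26 and 685, and averaging probes gave 183 divergent genes. Without each array in turn the ranges were 167 to 533, 326 to 704, 21 to 61, 58 to 123, 22 to 226, 93 to 229, 521 to 1121 and 413 to 1562. The lowest class, common and ibuprofen counts came without DMSO replicate 1 or 2. Of 1991 class changes recomputed for named genes, 1844 kept direction and side of the threshold, 100 lost the call, 3 gained one, 42 moved by more than the SD of the drug arrays (34 of them on slide 2 alone), and 2 reversed. Both of these were Fabp4, at -0.040 without DMSO replicate 3 (-0.040 to 0.497 without single arrays) and -0.040 without rosiglitazone replicate 1 and DMSO replicate 3 together. Replicate numbers were not treated as pairs in the main fit. Same-numbered arrays of different drug and DMSO groups correlated at a median of -0.05 in their deviations (range -0.30 to 0.48). For diclofenac and DMSO these correlations were 0.16, 0.39 and 0.48 for replicates 1, 2 and 3, and those of other-numbered arrays ran from -0.41 to 0.25. Whether those groups were paired by number was not tested. The replicate block gave 413, 650, 42, 113, 99, 201, 1078 and 1017. The background correction planned on non-normalized signals was not run. The causes were not tested. Dim probes limit what can be measured for genes near 6.18.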

Other observations

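Other genes moved the same way with every drug, in each fit without 1 array and with the slide block. They were named after their values were seen, and their values are limma class changes on the log2 scale with SE. Among rises, Pex16, which builds peroxisomal membranes, changed by 0.83 ± 0.12 and Hilpda, a lipid droplet protein that inhibits the triglyceride lipase of adipocytes, by 0.74 ± 0.10. Eif6, a factor of large ribosomal subunit assembly, changed by 0.83 ± 0.10. Pmepa1, a feedback inhibitor of TGFβ signalling, changed by 0.85 ± 0.10.

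Among falls, S100a8, a calcium-binding protein known from neutrophils, changed by -1.08 ± 0.12, with -0.81 for diclofenac, -1.02 for indomethacin and -1.40 for ibuprofen. Il15, a cytokine of lymphocytes, changed by -0.75 ± 0.12. Sparcl1, a matrix protein, changed by -1.15 ± 0.12. Cyp17a1, a steroid hydroxylase of adrenal and gonad, changed by -0.68 ± 0.10.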
